A study of Mus musculus with 9 samples.

Results

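The interferon-inducible GTPases are large enzymes that bind and split GTP and that cells make in quantity when an interferon, an alarm cytokine of infection, reaches them. Here they are 9 genes of the mouse, chosen by symbol from the 31804 genes of the count table: 5 guanylate-binding proteins (Gbp2, Gbp3, Gbp4, Gbp6 and Gbp7) and 4 immunity-related GTPases (Igtp, Irgm1, Irgm2 and Iigp1). All 9 had reads in all 9 libraries and passed the filter on low counts, as did 16438 genes in all. Transcripts were read by polyA RNA-seq in hippocampus of male C57BL/6NCrl mice, an inbred strain. Mice aged 8 weeks were given a recombinant adeno-associated virus (rAAV) in the dorsal hippocampus, which was dissected after 3 further weeks. The virus carried Camta1 shRNA A, Camta1 shRNA B or a control shRNA without a target, with 3 mice for each. Camta1 encodes a calmodulin-binding transcription activator, and the series looks for the genes that depend on it. The control mice also received virus and a hairpin, the dissected area was the one lit by the mCherry marker, and mice without virus were not analysed here.

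Interferons act through receptors on the cell surface and Janus kinases, which switch on STAT factors. The STAT factors then bind short DNA motifs close to the start of their target genes, the interferon-stimulated response element for type I interferons and the gamma-activated site for interferon-gamma. In mouse cells the guanylate-binding proteins gather on the vacuoles and membranes of intracellular pathogens, disrupt them and expose their contents to inflammasomes. Iigp1 (Irga6) belongs to the effector branch of the immunity-related GTPases. Igtp (Irgm3), Irgm1 and Irgm2 are the regulatory branch, which sits on the cell's own membranes, keeps the effectors inactive there and takes part in autophagy. In the brain, microglia, astrocytes, endothelium and neurons can all express these genes after interferon exposure.

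Total counts per library lay between 29123744 and 38189288, and 3 reads stood for 0.0776 to 0.102 CPM (the usual per-library scale of read counts, here with TMM factors). Camta1 itself had 230, 174 and 254 CPM with shRNA A, 239, 145 and 266 CPM with shRNA B, and 427, 455 and 442 CPM with the control shRNA, so that all 6 knock-down libraries lay below the 3 controls. Its log2 fold change was -1.01 ± 0.22 with shRNA A and -1.02 ± 0.22 with shRNA B (SE), with edgeR adjusted p = 0.388 and 0.0776. Of 9 genes listed as markers of hippocampal neurons, the 7 with a row were read in every library, with summed levels of 943 to 1239 CPM. Control replicate 3 had 1022 CPM over 4 choroid plexus genes, against 23.2 to 44.7 CPM in the other 8 libraries, and the members' levels in it lay beside those of the other controls.

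The sequence before a gene's start is where the interferon-activated factors bind, so promoters of the members were read from RefSeq (build GRCm38.p6), from 250 bases before to 50 bases after the annotated start. Promoters of 6 of the 9 members were read, and Gbp4, Gbp6 and Iigp1 are named only. The promoters of the 3 genes that passed the test with shRNA B (Gbp3, Gbp7 and Irgm1) and of the neighbouring pair Igtp and Irgm2 are shown, 5′ to 3′ on the strand of the gene. Capitals mark matches to the core of the interferon-stimulated response element or to the gamma-activated site.
Gbp3, chr3:142559794-142560093, plus strand: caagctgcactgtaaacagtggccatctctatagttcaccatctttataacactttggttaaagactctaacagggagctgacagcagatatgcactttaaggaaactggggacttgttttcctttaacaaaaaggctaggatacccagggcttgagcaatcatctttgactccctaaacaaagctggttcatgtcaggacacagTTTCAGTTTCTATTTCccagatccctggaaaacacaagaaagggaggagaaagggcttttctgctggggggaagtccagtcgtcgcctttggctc
Gbp7, chr3:142530086-142530385, plus strand: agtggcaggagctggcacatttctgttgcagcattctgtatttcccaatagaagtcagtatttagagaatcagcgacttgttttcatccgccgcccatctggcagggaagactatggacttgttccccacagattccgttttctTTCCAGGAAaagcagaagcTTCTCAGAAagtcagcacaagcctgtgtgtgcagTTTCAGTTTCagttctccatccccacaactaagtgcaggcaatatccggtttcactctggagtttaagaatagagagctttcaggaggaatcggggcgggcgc
Irgm1, chr11:48871371-48871670, minus strand: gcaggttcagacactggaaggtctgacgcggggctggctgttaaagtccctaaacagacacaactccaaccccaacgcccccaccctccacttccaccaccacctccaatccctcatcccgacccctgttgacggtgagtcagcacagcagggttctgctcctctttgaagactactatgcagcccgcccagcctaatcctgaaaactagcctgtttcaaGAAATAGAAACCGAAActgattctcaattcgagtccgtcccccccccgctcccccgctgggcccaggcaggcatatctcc
Igtp, chr11:58199306-58199605, plus strand: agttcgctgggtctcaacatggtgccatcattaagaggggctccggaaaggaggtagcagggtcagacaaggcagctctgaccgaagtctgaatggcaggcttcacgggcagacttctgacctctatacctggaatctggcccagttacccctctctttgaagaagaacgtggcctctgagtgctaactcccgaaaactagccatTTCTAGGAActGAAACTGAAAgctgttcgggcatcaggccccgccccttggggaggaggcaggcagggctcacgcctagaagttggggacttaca
Irgm2, chr11:58214727-58215026, plus strand: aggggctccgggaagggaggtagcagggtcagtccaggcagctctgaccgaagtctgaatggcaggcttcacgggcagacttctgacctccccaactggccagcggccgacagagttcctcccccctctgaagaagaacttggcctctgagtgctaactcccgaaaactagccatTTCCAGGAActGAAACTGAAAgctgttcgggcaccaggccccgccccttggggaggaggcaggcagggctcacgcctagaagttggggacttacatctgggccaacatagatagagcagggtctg

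The response element core was searched on both strands as the word GAAA, any 2 bases and again GAAA and the gamma-activated site as TTC, any 3 bases and GAA, which reads alike on both strands. The core was found in the promoters of all 6 genes, Gbp2 included, and in 3.44% of 32851 mouse promoters of this length. Counted by gene it was found in 3.99% of 27025 genes. The gamma-activated site was found in Gbp7, Igtp and Irgm2, and in 8.30% of all promoters. Both motifs stood together in these 3 members and in 0.454% of all promoters. A second annotated start of Gbp3 held neither. The shared letters show in the sequences above: Igtp and Irgm2 both carry GAAACTGAAA, Gbp7 carries TTTCAGTTTC, which is that match read on the other strand, and Gbp3 carries the same TTTCAGTTTC with a second, overlapping match. Irgm1 holds the overlapping pair GAAATAGAAA and GAAACCGAAA. Gbp2 holds TTTCACTTTC. Irgm2 and Gbp7 share the gamma-activated match TTCCAGGAA. Igtp has TTCTAGGAA, in the same place relative to its core as the match of Irgm2.

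The matches lay close to the start sites. Relative to the annotated start at 0, the core spanned -45 to -30 in Gbp3, where both matches overlap, -53 to -44 in Gbp7 and -59 to -50 in Gbp2. It spanned -30 to -15 in Irgm1, -34 to -25 in Igtp and -64 to -55 in Irgm2. The gamma-activated sites spanned -106 to -98 and -87 to -79 in Gbp7, -45 to -37 in Igtp and -75 to -67 in Irgm2. Aligned without gaps, the promoters of Igtp and Irgm2 were identical at 184 of 270 bases (68.1%), with an identical run of 61 bases. Among the other genes that rose with shRNA B, 94 had a promoter entry outside chromosome 18. Of these 94, 21 (22.3%) held the core and 13 (13.8%) the gamma-activated site. Over all genes with an entry, from which chromosome 18 was not left out, the shares were 3.99% and 9.55%. The member Iigp1 lies on chromosome 18, and its promoter was not read. A match is a description of letters and shows no binding.

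**Figure D1:**
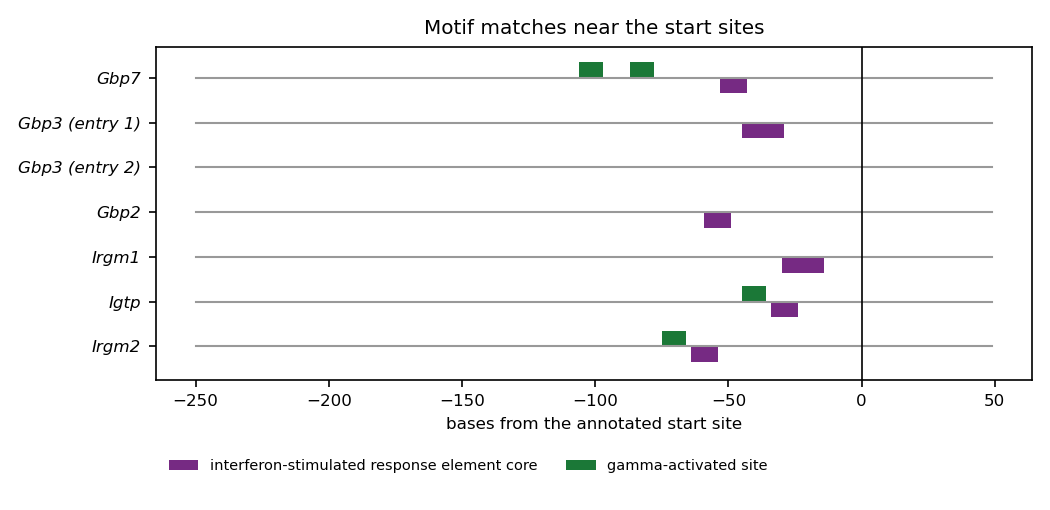
Matches to the interferon-stimulated response element core (purple, below the line) and the gamma-activated site (green, above the line) in RefSeq promoters of 6 members, from 250 bases before to 50 after the annotated start (x axis, bases; overlapping matches drawn as 1 block). Every core match lies between -64 and -15, and the second Gbp3 entry has none.

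With shRNA B all 9 members were higher than with the control shRNA in every comparison of libraries, and 3 of them, Gbp3, Gbp7 and Irgm1, passed the test over all genes. The members' median log2 fold change was 1.45, against 0.0013 over all 16438 genes tested. By edgeR's quasi-likelihood test 0.779% of all genes were called higher with shRNA B, and 9.27% of all genes had every shRNA B library above every control, as 9 of 9 members had. The members are related genes of 1 response read in the same 3 mice, so they do not count as 9 separate observations.

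Gbp3, a guanylate-binding protein, had the largest difference. It stood at 12.05, 24.7 and 13.4 CPM with shRNA B, against 3.46, 3.47 and 4.12 CPM with the control shRNA, from 417 to 785 reads and 102 to 131 reads per library. The lowest shRNA B library was thus well above the highest control. The ratio of means was 4.54, and the log2 fold change was 2.18 ± 0.31 (SE, edgeR adjusted p = 0.0237). Gbp7, which in mouse macrophages takes part in oxidative killing of bacteria, had 7.16, 10.6 and 7.79 CPM with shRNA B and 4.14, 3.56 and 3.31 CPM with the control shRNA. The groups did not overlap, and the log2 fold change was 1.21 ± 0.22 (SE, edgeR adjusted p = 0.0317). Of 50-base stretches of Gbp7 transcripts, 12.7% are also found in other genes, chiefly a pseudogene, so part of its reads could have been lost or shared.

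The other 3 guanylate-binding proteins did not pass the test with shRNA B. Gbp2, which is recruited to vacuoles of Toxoplasma in mouse cells, had 4.73, 10.6 and 3.99 CPM with shRNA B, against 2.61, 2.07 and 2.36 CPM with the control shRNA. Replicate 2 of shRNA B was more than the other 2 together, and the log2 fold change was 1.45 ± 0.44 (SE, edgeR adjusted p = 0.215). The Gbp6 row had 1.76, 4.94 and 2.99 CPM with shRNA B, against 0.746, 1.02 and 0.913 CPM with the control shRNA, with a log2 fold change of 1.84 ± 0.45 (SE, edgeR adjusted p = 0.112). These are few reads, 22 to 32 per control library. The identifier of that row, ENSMUSG00000079362, is named Gm43302 in GENCODE M21, overlaps exons of Gbp6 and Gbp10, and shares all of its 50-base stretches with other genes, so its level cannot be given to 1 gene. Gbp4 differed least of the 9, with 1.76, 2.64 and 1.74 CPM with shRNA B and 1.39, 1.24 and 1.23 CPM with the control shRNA. Its groups did not overlap either, but the gap was narrow and the log2 fold change was 0.67 ± 0.29 (SE, edgeR adjusted p = 0.366).

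Among the immunity-related GTPases Irgm1 passed the test with shRNA B. Irgm1, whose loss in mice impairs autophagy and resistance to mycobacteria, had 9.31, 19.2 and 12.97 CPM with shRNA B, against 5.43, 5.86 and 5.10 CPM with the control shRNA. All 3 shRNA B libraries were higher, with a ratio of means of 2.53 and a log2 fold change of 1.34 ± 0.24 (SE, edgeR adjusted p = 0.0422). Only 0.310% of its 50-base stretches occur in another gene. Igtp, a regulator found on the endoplasmic reticulum and lipid droplets, had 4.55, 11.4 and 5.86 CPM with shRNA B and 2.17, 2.13 and 1.98 CPM with the control shRNA. Its log2 fold change of 1.79 ± 0.35 (SE) was larger than that of Irgm1, with edgeR adjusted p = 0.0518, just outside the threshold of 0.05.

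Irgm2, a regulator of the Golgi apparatus, had the tightest shRNA B group of the 9, with 5.27, 7.08 and 5.76 CPM, against 3.36, 2.93 and 2.96 CPM with the control shRNA. The log2 fold change was 0.97 ± 0.22 (SE, edgeR adjusted p = 0.0614). Igtp and Irgm2 share 162 bases of exon sequence, and 11.8% and 7.77% of their 50-base stretches occur in another gene. Iigp1, the effector that oligomerises on pathogen vacuoles, had 4.58, 12.5 and 6.82 CPM with shRNA B, against 2.20, 1.43 and 2.14 CPM with the control shRNA. Its ratio of means, 4.14, was second to that of Gbp3, and its libraries were so spread that the log2 fold change of 2.04 ± 0.49 (SE) had edgeR adjusted p = 0.128.

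The calls with shRNA B depended on the tool and on the controls. At an unadjusted p under 0.05 edgeR had 9 of 9 members higher, where 6.41% of all genes were. DESeq2 called 7 of 9, all but Gbp2 and Gbp4, where it called 1.36% of all genes higher. Limma-voom called 0 of 9, where it called 0.353% of all genes higher, and at an unadjusted p under 0.05 it had 8 of 9, where 6.35% of all genes were. Without control replicate 1, 2 or 3 edgeR called 0 of 9 each time and had 8 of 9 at an unadjusted p under 0.05, where 4.93%, 5.7% and 5.95% of all genes were higher at that level. Over all genes it called 13, 23 and 19 in these fits, higher or lower. Without shRNA A replicate 1, which is in the fit but not in the contrast, edgeR called 1, Gbp3, among 103 genes in all. Without shRNA B replicate 1 it called 5 members, among 217 genes in all. Over the alternatives the adjusted p ran from 2.47e-14 to 0.125 for Gbp3, from 1.36e-05 to 0.134 for Gbp7 and from 8.73e-07 to 0.181 for Irgm1, while the log2 fold change of each member stayed positive. In the authors' deposited table, a likelihood ratio test over both hairpins gives adjusted p = 1.09e-14 for Gbp3, 1.78e-06 for Irgm1, 2.61e-06 for Igtp and 5.36e-05 for Gbp7. The authors' deposited table has 0.000831 for the Gbp6 row, 0.00945 for Irgm2, 0.0178 for Iigp1, 0.211 for Gbp2 and 0.589 for Gbp4.

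**Figure D2:**
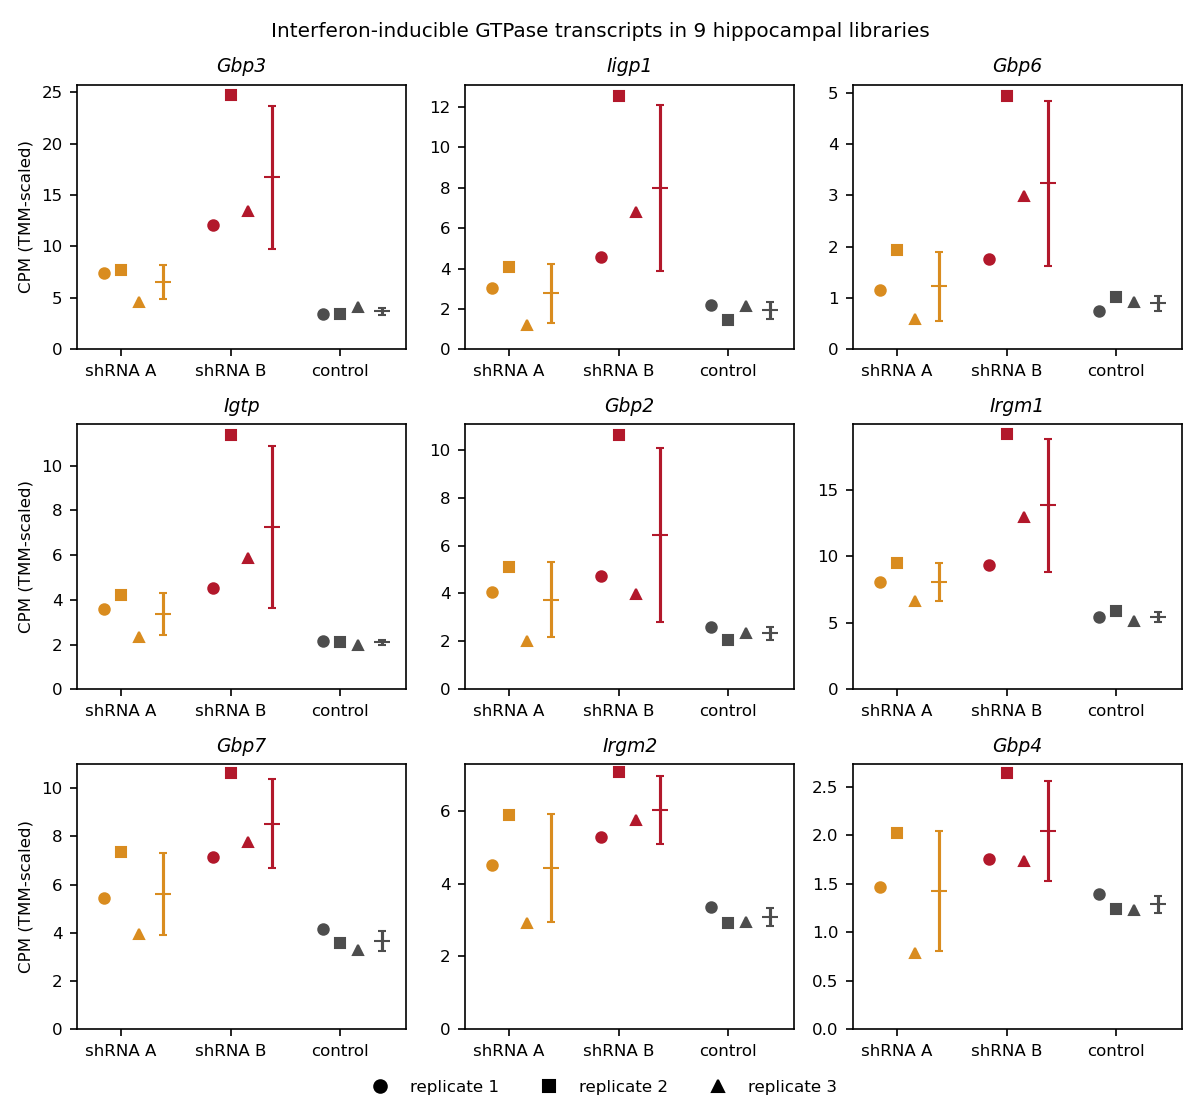
Level of each member in the 9 libraries (y axis, TMM-scaled CPM from 0) for shRNA A, shRNA B and control shRNA, with the mean and SD of 3 libraries beside the points. In every panel replicate 2 of shRNA B is the highest library and all 3 shRNA B libraries lie above the 3 controls.

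With shRNA A 0 of 9 members passed the test, and 4 of 9 had an unadjusted p under 0.05 (Gbp3, Gbp7, Irgm1 and Irgm2), where 3.52% of all genes were higher at that level. The background of genes called higher was 0.0243% with shRNA A by edgeR. All 9 log2 fold changes were positive, with a median of 0.56 against 0.0002 over all genes. That median was 0.36 without shRNA A replicate 2 and 0.81 without shRNA A replicate 3. For Gbp3, Igtp and Irgm1 every shRNA A library was above every control, 3 of 9 members where 6.84% of all genes did so. Gbp3 had 7.38, 7.69 and 4.65 CPM with shRNA A, beside the control values given above, and a log2 fold change of 0.83 ± 0.32 (SE, edgeR adjusted p = 0.706). Irgm1 had 8.08, 9.46 and 6.64 CPM and a log2 fold change of 0.56 ± 0.25 (SE, edgeR adjusted p = 0.721). Igtp had 3.58, 4.21 and 2.36 CPM and a log2 fold change of 0.69 ± 0.36 (SE, edgeR adjusted p = 0.751). In these 3 genes replicate 3 of shRNA A lay just above the controls and the other shRNA A libraries clearly above.

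In the remaining 6 members replicate 3 of shRNA A lay within or below the controls. Gbp7 had 5.46, 7.37 and 3.96 CPM with shRNA A and Irgm2 4.51, 5.89 and 2.91 CPM, with log2 fold changes of 0.61 ± 0.22 and 0.53 ± 0.22 (SE, edgeR adjusted p = 0.685 and 0.720). Gbp2 had 4.06, 5.11 and 2.03 CPM and Iigp1 3.04, 4.09 and 1.21 CPM, with log2 fold changes of 0.67 ± 0.45 and 0.53 ± 0.52 (SE). The third value is below all 3 controls in both genes. The Gbp6 row had 1.15, 1.93 and 0.589 CPM and Gbp4 1.47, 2.03 and 0.786 CPM, and their log2 fold changes, 0.45 ± 0.49 and 0.15 ± 0.30 (SE), became -0.04 and -0.19 without shRNA A replicate 2, so the sign for Gbp6 and Gbp4 with shRNA A rests on 1 library. By edgeR the adjusted p of these 4 genes lay between 0.800 and 0.939.

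Set directly against each other, shRNA B gave higher means than shRNA A for all 9 members, but 0 of 9 passed edgeR's test, where 0% of all genes were called higher. At an unadjusted p under 0.05 there were 6 of 9, where 4.55% of all genes were higher. The members' median log2 fold change of shRNA B over shRNA A was 0.78, and it was 0.46 without shRNA B replicate 2. Gbp3 had the lowest p, with a log2 fold change of 1.34 ± 0.29 (SE, edgeR adjusted p = 0.214), and Iigp1 the largest difference, 1.51 ± 0.47 (SE, edgeR adjusted p = 0.370). For Gbp3, Igtp and Iigp1 every shRNA B library was above every shRNA A library, 3 of 9, where 7.29% of all genes did so. DESeq2 called Gbp3 and Igtp in this comparison, and 0.45% of all genes higher. That a member passed with shRNA B and not with shRNA A is therefore not by itself a difference between the hairpins. For the mean of both hairpins over control 0 of 9 members were called by edgeR, where 0.073% of all genes were called higher. At an unadjusted p under 0.05 there were 8 of 9, where 5.22% of all genes were higher, and DESeq2 called 5 members and 0.84% of all genes higher. These comparisons share libraries with each other and with those of each hairpin over the control shRNA, so their results are not independent.

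**Figure D3:**
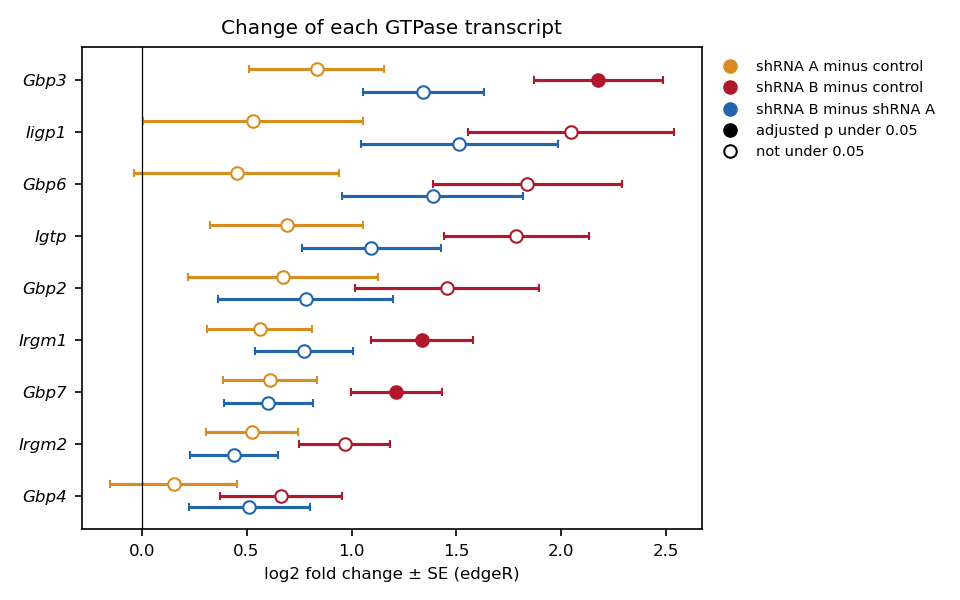
Log2 fold change of each member ± SE (x axis), by edgeR, for each hairpin over the control shRNA and for shRNA B over shRNA A, with filled points for an adjusted p under 0.05. The filled points are Gbp3, Irgm1 and Gbp7 with shRNA B.

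The members varied together from library to library. Replicate 2 of shRNA B was the highest of all 9 libraries for 9 of 9 members. Within shRNA A, replicate 2 was the highest and replicate 3 the lowest for 9 of 9. Within shRNA B, replicate 1 was the lowest for 7 members and replicate 3 for 2, Gbp2 and Gbp4. Summed over the members, the level was 38.7, 47.8 and 25.1 CPM with shRNA A, 51.2, 104 and 61.3 CPM with shRNA B, and 25.5, 23.7 and 24.1 CPM with the control shRNA. The 3 controls thus lay within 2 CPM of each other, while the highest shRNA B library had more than the lowest shRNA B and the highest control together.

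The spread inside a group differed among members and was wider in the knock-down groups. The highest library was 1.34 (Irgm2) to 2.81 (Gbp6) times the lowest with shRNA B, 1.42 (Irgm1) to 3.37 (Iigp1) times with shRNA A, and 1.09 (Igtp) to 1.54 (Iigp1) times with the control shRNA. For 9 of 9 members this ratio was wider with either hairpin than with the control shRNA. Replicate 2, which had the highest members in each hairpin group, had the lowest Camta1, 174 CPM with shRNA A and 145 CPM with shRNA B. Replicate 3 of each hairpin had the highest Camta1 of its group, 254 and 266 CPM, with the lowest level of all 9 members for shRNA A, but with the middle level of 7 members for shRNA B. The part of Camta1 in the members' levels was not tested.

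Levels between genes were compared per kilobase of exon, with lengths from GENCODE M21, which is not the annotation behind the counts. With shRNA B the order from high to low was Gbp3, Igtp, Gbp2, Irgm1, Irgm2, Gbp7, Iigp1, Gbp6 and Gbp4, from 5.12 ± 2.12 to 0.273 ± 0.0688 CPM per kilobase (SD, n = 3). With shRNA A the order was the same, from 2.01 ± 0.513 to 0.190 ± 0.0830 CPM per kilobase. With the control shRNA Gbp3 and Igtp again led, at 1.13 ± 0.117 and 1.04 ± 0.0489 CPM per kilobase, and Irgm1 came before Gbp2, at 0.940 ± 0.0652 and 0.933 ± 0.108 CPM per kilobase. Neighbours among the first 5 differed by less than the sum of their SDs in the controls, as did Gbp6 and Gbp4, while Gbp7 (0.654 ± 0.0758) and Iigp1 (0.331 ± 0.0736 CPM per kilobase) stood apart from the genes next to them. With shRNA B neighbours differed by less than the sum of their SDs except for Gbp6 and Gbp4.

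The other genes of these families were taken from a list of 19, of which 17 had a row and 10 passed the filter on low counts. With shRNA B 2 of the 10 rose, where 0.779% of all genes were called higher, 0 fell, and the median log2 fold change was 1.55. In 8 of the 10 every shRNA B library was above every control, where 9.27% of all genes did so. Gbp5, which promotes inflammasome assembly, had 3.54, 5.97 and 4.22 CPM with shRNA B, against 1.53, 1.85 and 1.35 CPM with the control shRNA (log2 fold change 1.53 ± 0.24, SE, edgeR adjusted p = 0.0159). Gm4951, a relative of Iigp1, had 0.724, 1.57 and 1.32 CPM with shRNA B, against 0.136, 0.0637 and 0.126 CPM with the control shRNA (log2 fold change 3.42 ± 0.57, SE, edgeR adjusted p = 0.0237). Its control values are at or near the level of 3 reads, so the size of its change is uncertain. With shRNA A 0 of the 10 passed, with a median of 0.70, and Gbp5 had 2.14, 3.35 and 2.23 CPM. Irgq, a divergent family member named after its values were seen, gave log2 fold changes of -0.02 ± 0.078 with shRNA B and -0.01 with shRNA A. Gbp2b, likewise named afterwards, had 0 reads in all 9 libraries.

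Upstream of the GTPases, the ligands were at or near 0 reads. Interferon-gamma (Ifng), interferon-beta (Ifnb1) and 4 other type I interferon genes had 0 reads in all 9 libraries, which allows up to 0.0776 to 0.102 CPM per library and covers counting error only. The receptors were read in all groups: of 9 receptor and Janus kinase genes 8 were tested, and 0 passed with either hairpin, with median log2 fold changes of 0.04 with shRNA A and 0.03 with shRNA B. Ifngr1, which binds interferon-gamma, averaged 15.9 ± 2.26 CPM with shRNA A, 14.8 ± 1.09 CPM with shRNA B and 14.5 ± 0.971 CPM with the control shRNA (SD, n = 3). Ifngr2, its partner, averaged 68.2 ± 3.88 CPM with shRNA A, 68.5 ± 4.96 CPM with shRNA B and 76.7 ± 7.34 CPM with the control shRNA. The type I receptor genes Ifnar1 and Ifnar2 averaged 46.0 ± 3.67 and 20.6 ± 1.65 CPM with shRNA B, against 46.5 ± 0.596 and 19.8 ± 1.33 CPM with the control shRNA.

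Of 11 interferon-related transcription factor genes 10 were tested, and with shRNA B 3 rose and 0 fell, with a median log2 fold change of 0.70. Of all genes 0.779% were called higher. In 6 of the 10 every shRNA B library was above every control, where 9.27% of all genes did so. Irf9 and Stat2, the DNA-binding and STAT subunits of the type I interferon complex, rose by 1.18 ± 0.21 and 0.67 ± 0.11 on the log2 scale (SE, edgeR adjusted p = 0.0379 and 0.0239). Irf8, a factor of microglia and other myeloid cells, averaged 8.98 ± 0.735 CPM with shRNA B and 5.43 ± 0.768 CPM with the control shRNA (SD, n = 3; log2 fold change 0.72 ± 0.12, SE, edgeR adjusted p = 0.0217). Irf1, an early interferon-gamma target that drives Gbp genes, had 10.1, 11.6 and 8.24 CPM with shRNA B and 10.8, 9.20 and 9.13 CPM with the control shRNA, which overlap. With shRNA A 0 of the 10 passed.

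Of 8 inhibitors of the pathway, Usp18, which shuts down the type I interferon receptor, rose with shRNA B (5.80 ± 3.02 CPM, against 0.804 ± 0.249 CPM with the control shRNA, SD, n = 3; log2 fold change 2.83 ± 0.49, SE, edgeR adjusted p = 0.0391). Socs1, which blocks Janus kinases, averaged 0.855 ± 0.382 CPM with shRNA B and 0.663 ± 0.227 CPM with the control shRNA, within the spread. Of 13 tested targets of interferon-gamma 3 rose with shRNA B, with a median log2 fold change of 1.17: Tap1, the peptide transporter (1.55 ± 0.29, edgeR adjusted p = 0.0450), Psmb8, an immunoproteasome subunit (1.17 ± 0.21, edgeR adjusted p = 0.0262), and Ifi30, a lysosomal reductase (0.80 ± 0.16, edgeR adjusted p = 0.0429). Of 14 tested antiviral effectors of type I interferon 8 rose, with a median of 2.43. Among them Mx2 rose by 2.39 ± 0.41, Ifit1 by 3.35 ± 0.56 and Ifit3 by 2.47 ± 0.33 on the log2 scale (SE, edgeR adjusted p = 0.0271, 0.0443 and 0.0207). Rtp4, a chaperone of receptors, rose by 2.25 ± 0.33 and Ifit2 by 0.78 ± 0.15 on the log2 scale (SE, edgeR adjusted p = 0.0167 and 0.0361). Mx1, a relative of Mx2, had 1.50, 4.62 and 2.41 CPM with shRNA B, against 0.136, 0.0637 and 0.0315 CPM with the control shRNA (edgeR adjusted p = 0.0246). Its control values lay near or below the level of 3 reads, so the size of its change is uncertain. Of all genes 0.779% were called higher with shRNA B. Every shRNA B library was above every control for 4 of the 8 inhibitors, 9 of the 13 targets and 13 of the 14 effectors. Of all genes 9.27% did so. With shRNA A 0 genes of these 3 lists passed, with medians of 0.15, 0.42 and 0.98. Without control replicate 1, 2 or 3 edgeR called 0 genes of these lists and of the factors and related GTPases with shRNA B, and over all alternatives the count of effectors ranged from 0 to 13.

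The machinery with which the GTPases work showed a mixed picture. Listed for targeting of the GTPases to vacuoles were 12 genes, among them those of the ubiquitin-like conjugation system that loads the GTPases there. Of the 12, 0 passed with either hairpin, and the median log2 fold change with shRNA B was 0.0066. Of 6 tested inflammasome genes 2 rose with shRNA B, where 0.779% of all genes were called higher. Casp1, the inflammasome protease, averaged 1.94 ± 0.395 CPM with shRNA B, against 0.964 ± 0.134 CPM with the control shRNA (SD, n = 3; log2 fold change 1.003 ± 0.21, SE, edgeR adjusted p = 0.0450). Zbp1, a sensor of Z-form nucleic acids, averaged 1.42 ± 0.621 CPM, against 0.0550 ± 0.0405 CPM with the control shRNA, where it lay at or below the level of 3 reads (edgeR adjusted p = 0.0443). Neither gene was called without any 1 of the 3 controls, without shRNA A replicate 1 or without shRNA B replicate 2 or 3.

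**Figure D4:**
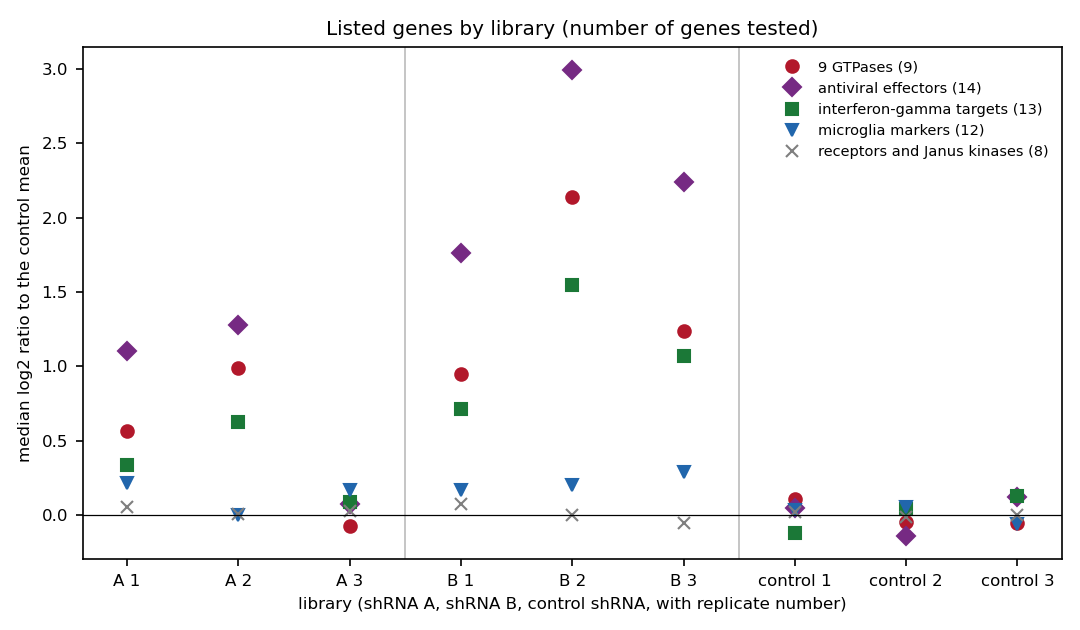
Median log2 ratio to the control mean (y axis) of 5 lists in each library (x axis), with a pseudocount of 0.1 CPM and the number of tested genes in brackets. The members reach 2.14 in replicate 2 of shRNA B and lie at -0.08 in replicate 3 of shRNA A, while receptors and Janus kinases stay near 0 in every library.

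Markers of cell types that could carry the members were read beside them. In tissue, a change in the number of cells of a type and a change in the RNA per cell cannot be told apart. Of 12 microglia markers 2 rose with shRNA B, named here after their values were seen, C1qa (log2 fold change 0.66 ± 0.090) and Ctss (0.62 ± 0.10, SE, edgeR adjusted p = 0.0109 and 0.0220). The summed level of the 12 was 648, 561 and 615 CPM with shRNA A, 644, 691 and 711 CPM with shRNA B, and 568, 575 and 540 CPM with the control shRNA. The median log2 fold change of the 12 with shRNA B was 0.21, against 1.45 for the members. Of the 12 markers 0 were called without control replicate 1 or 3, and 1 without control replicate 2 or shRNA B replicate 2. Of the 12, 11 log2 fold changes with shRNA B were positive. In 9 of 12 every shRNA B library was above every control, where 9.27% of all genes did so. Of all genes 0.779% were called higher with shRNA B. At an unadjusted p under 0.05 edgeR had 8 of 12, where 6.41% of all genes were higher. The homeostatic markers P2ry12 and Siglech, also named after their values were seen, were among the flat ones, with -0.09 ± 0.097 and 0.06 ± 0.095. The part of microglia in the members' levels was not tested.

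Lymphocyte markers were scarce but not even. The summed level of 14 T and NK cell markers was 1.92, 2.64 and 2.81 CPM with shRNA A, 2.30, 4.09 and 2.86 CPM with shRNA B, and 2.24, 2.86 and 2.11 CPM with the control shRNA. Of the 14, the number with 0 reads was 4, 5 and 8 with shRNA A, 5, 0 and 1 with shRNA B, and 8, 5 and 7 with the control shRNA. Cd8a, picked after its values were seen, had 1, 0 and 0 reads with shRNA A, 0, 9 and 5 reads with shRNA B, and 0, 0 and 2 reads with the control shRNA. Only 2 of the 14 passed the filter on low counts, and 0 of these passed the test. Of the markers of monocytes, neutrophils and border macrophages 5 of 9 were tested and 0 passed, with summed levels of 9.95, 8.08 and 9.24 CPM with shRNA B and 12.5, 6.88 and 9.13 CPM with the control shRNA. Endothelial markers gave a median log2 fold change of -0.01 with shRNA B, with 0 called. Of 8 astrocyte markers 1 rose with shRNA B, where 0.779% of all genes were called higher. It was Aldh1l1, named after its values were seen, which was not called without control replicate 1 or 3. Of the 8, 2 log2 fold changes were positive and 6 negative, with a median of -0.02. All 9 neuron markers had negative log2 fold changes with each hairpin, with medians of -0.06 with shRNA A and -0.11 with shRNA B, and 0 passed the test. All 6 oligodendrocyte markers had positive ones, with medians of 0.43 with shRNA A and 0.31 with shRNA B, and 0 passed. Their summed level was 3871, 6051 and 5886 CPM with shRNA A, 5573, 3122 and 6358 CPM with shRNA B, and 2741, 4501 and 4175 CPM with the control shRNA, so the groups overlapped and the lowest shRNA B library was replicate 2. The part of these cells in the members' levels was not tested.

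The genes whose pattern over the 9 libraries was most like that of the members were found by the root mean square difference between a gene's log2 CPM and the members' median, each centred on the controls, among 14511 genes averaging 1 CPM or more. They were Ifitm3 (0.147), H2-Q4 (0.172), Trim30a (0.174), Dhx58 (0.187), Parp14 (0.189), H2-T23 (0.193), H2-K1 (0.194) and Rnf213 (0.218). Ifitm3 had 10.1, 12.5 and 8.31 CPM with shRNA A, 16.03, 31.3 and 17.0 CPM with shRNA B, and 7.05, 7.03 and 7.31 CPM with the control shRNA. Its replicate 2 was the highest in both hairpin groups, as for the members, which the choice by likeness to them favours. Of the members themselves Igtp lay closest to their own median, at 0.156, with 1 outside gene closer, and Gbp4 farthest, at 0.568, with 89 outside genes closer. Gbp3 lay at 0.431, since its change was larger than the median throughout. The likeness is a description over 9 libraries and says nothing of a shared cause.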

How the data were processed

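The counts are raw reads per Ensembl gene in 9 libraries, as the authors deposited them, per the file headers. Software listed in the submitters' processing notes is TopHat (1.4.1), then SAMtools (0.1.19), also HTSeq (0.6.1), with DESeq2 (1.4.5) under R (3.1.1), and the mouse build is mm9. Their settings and the gene annotation are not given in the sources used here. The libraries keep no strand, so reads of antisense neighbours cannot be separated. The deposited table further gives, per the file headers, a mean normalized signal, the log2 fold change of each hairpin and its standard error, a test score, and a p-value with its adjusted form. Of its columns of per-sample values, 0 had no matching label.

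Counts were tested as deposited with edgeR 4.0.16 in R 4.3.3: genes kept by filterByExpr, scaling by TMM, a quasi-likelihood fit with robust estimation over all 9 libraries, two-sided tests, and Benjamini-Hochberg adjustment over 16438 genes with a threshold of 0.05. SEs were derived from the fold change and the F statistic. The code was tested on simulated counts. DESeq2 1.42.0, limma-voom (limma 3.58.1), other scalings and filters, and fits without each library were run as alternatives. Mice are separate by the series' design, and replicates of a group differed by more than counting noise (chi-square per degree of freedom from 8.32 to 22.1). Lengths and shared stretches of 50 bases come from GENCODE M21 (GRCm38). The members and lists were chosen with earlier results of these data known. Named were all members, list genes past the threshold (at most 6 a list), 10 pathway genes whatever their values (1 of which is not reported here), and the 8 most alike genes; a gene named outside this rule is said to be so beside its values.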

Additional observations from a re-analysis of the deposited data

How the results depend on the processing

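The members' log2 fold changes with shRNA B stayed positive in each of the 17 alternatives. The number of members called with shRNA B, 3 by edgeR, was 7 with DESeq2, 0 with limma-voom, 5 with robust estimation off and 5 with the replicate block, and it ran from 0 to 5 when 1 library was left out. For the mean of both hairpins it was 5 with DESeq2 and 0 to 1 with 1 library left out, and for shRNA B minus shRNA A it was 2 with DESeq2. With no low-count filter, or with only the contrast's groups in the fit, the members called with shRNA B were Gbp7 and Irgm2. With shRNA A the count was 0 in every alternative. The cause of these changes was not tested.

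Over all genes, 167 were called with shRNA B, 386 by DESeq2 and 78 by limma-voom. The count was 183 with robust estimation off, 208 with no low-count filter and 42 with only the contrast's groups in the fit. It ran from 13 to 217 with 1 library left out. With shRNA A 4 were called, 43 by DESeq2. For the mean 16 were called, 243 by DESeq2, and for shRNA B minus shRNA A 0, 123 by DESeq2. Same-numbered libraries correlated between -0.119 and 0.342 in their deviations from the group means. Pairs of shRNA A with shRNA B had 0.0937, 0.111 and 0.342, and pairs with a control ran from -0.119 to 0.0411. Pairs with different numbers ran from -0.230 to 0.152 for shRNA A with shRNA B. With a control they ran from -0.107 to 0.187. These values do not decide whether the numbers pair the mice, since no test was made of them. With the replicate block 148 genes were called with shRNA B.

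Signs turned for small log2 differences when 1 library was left out: with shRNA A Gbp4 ranged from -0.19 to 0.44, Gbp6 from -0.0367 to 0.78, Casp1 from -0.14 to 0.0449, Ifnar2 from -0.0039 to 0.10 and Socs1 from -0.11 to 0.36. With shRNA B Ifngr1 ranged from -0.03 to 0.0878, Ifnar1 from -0.0715 to 0.0428, Irf1 from -0.0761 to 0.16 and Socs1 from -0.0577 to 0.60, and Ifnar1 was 0.0041 with scaling by library size alone. The mean of both hairpins could not be fitted with its own groups alone, since it uses all 3. Low counts limit Gbp4 and Gbp6, with 18 to 63 reads in the shRNA A and control libraries.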
